A study of Mus musculus with 12 samples.

Results

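Neutrophil granule and surface genes were examined in mouse colon, in mice lacking thrombospondin 1 (TSP-1-/-) and in wild type (WT) mice. A list of 10 genes (S100a8, S100a9, Csf3r, Trem1, Clec4e, Fpr1, Fpr2, Ngp, Camp and Ltf) was matched to the array's probes by gene symbol, and only probes with a single symbol were taken. Of the 10 genes, 8 had such a probe, 1 each, among 19935 genes with a single-symbol probe in the whole series. Fpr1 and Fpr2, the receptors for bacterial formylated peptides, were not matched in this way and were not analysed here.

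Total colon RNA was hybridised to 12 whole-transcript arrays, 3 per group, and the labels call the 3 arrays of a group biological replicates. The groups were TSP-1-/- AOM/DSS, WT AOM/DSS, TSP-1-/- water and WT water, all of the C57BL/6 strain. AOM/DSS mice were males that received a single injection of 10 mg/kg azoxymethane (AOM), a colon carcinogen, and then drank 1.5% dextran sodium sulfate (DSS), which injures the colonic epithelium, in 4 cycles of 7 days. They were 7 weeks old at the start and were killed 15 weeks after the injection. The design text speaks of excised tumors and the methods of normal and diseased colon, so how much tumor each AOM/DSS sample held is not known. The water groups drank water only, their age at killing is not given in the sources used here, and their labels carry the treatment text of another DSS experiment. The TSP-1-/- mice carry a targeted mutation that leaves a Thbs1 transcript but no protein, so the Thbs1 probe does not check the genotype. Its values were 0.81, 0.85 and 0.93 in TSP-1-/- AOM/DSS colons, against 0.27, -0.16 and -0.07 in WT AOM/DSS colons.

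Neutrophils are short-lived phagocytes that leave the blood for injured tissue, and in the DSS colon they collect in ulcers and in crypts. Their granules are filled in sequence in the bone marrow, and the genes of the later granules are transcribed mainly at the myelocyte and metamyelocyte stages and then turned down. A mature neutrophil in tissue therefore holds granule proteins such as lactoferrin and cathelicidin while carrying little of their mRNA, whereas the mRNAs of calgranulins and of surface receptors are plentiful in mature cells. On this basis Ngp, Camp and Ltf are called immature granule genes below, and S100a8, S100a9, Csf3r, Trem1 and Clec4e mature neutrophil genes. These names are labels for the sets. Which cells of the colon carried the transcripts, neutrophils or others, was not measured.

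S100a8 and S100a9 encode the calgranulins, calcium-binding proteins that pair as calprotectin and make up much of the neutrophil cytosol. They lie 22.6 kb apart on chromosome 3 (build GRCm38.p6), S100a8 at 90669071 to 90670034 and S100a9 at 90692630 to 90695721. Csf3r, the receptor for granulocyte colony-stimulating factor, lies on chromosome 4 (126023441 to 126044975). Trem1, an activating receptor that amplifies Toll-like receptor signals, lies on chromosome 17 (48232713 to 48246927), and Clec4e, a C-type lectin that recognises fungal and mycobacterial glycolipids and products of dead cells, on chromosome 6 (123281789 to 123289871). The 3 immature granule genes all lie on chromosome 9 within 1195390 bp: Camp, the cathelicidin antimicrobial peptide (109847377 to 109849456), Ngp, a neutrophilic granule protein related to cystatins and cathelicidins (110419808 to 110423012), and Ltf, the iron-binding lactoferrin (111019292 to 111042766).

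The promoter windows of 4 members are shown because the results turn on them: S100a8 and S100a9 had the highest correlation of any member pair, Csf3r was the called gene, and Ngp stands for the immature genes. Each window runs from 250 bases before to 50 bases after the start that RefSeq gives on GRCm38.p6, on the strand of the gene, and capitals mark matches on either strand to TTGCNNAA, the letters of a C/EBP site, or to GAGGAA, the letters of a PU.1 site. C/EBP factors and PU.1 are the main transcription factors of granulocyte development.
S100a8 (chr3:90668821-90669120, plus strand): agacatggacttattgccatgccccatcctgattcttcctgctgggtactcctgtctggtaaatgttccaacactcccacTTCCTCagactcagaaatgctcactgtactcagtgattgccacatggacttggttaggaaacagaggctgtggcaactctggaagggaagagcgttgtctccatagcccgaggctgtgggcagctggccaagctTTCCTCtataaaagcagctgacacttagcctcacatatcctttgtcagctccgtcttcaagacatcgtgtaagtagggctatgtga
S100a9 (chr3:90695672-90695971, minus strand): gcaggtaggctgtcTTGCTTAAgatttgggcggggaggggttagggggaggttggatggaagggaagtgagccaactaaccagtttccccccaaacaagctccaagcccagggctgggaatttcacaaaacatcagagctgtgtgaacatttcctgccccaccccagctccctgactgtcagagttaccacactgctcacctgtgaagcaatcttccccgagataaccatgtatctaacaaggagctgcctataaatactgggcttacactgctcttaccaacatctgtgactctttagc
Csf3r (chr4:126024409-126024708, plus strand): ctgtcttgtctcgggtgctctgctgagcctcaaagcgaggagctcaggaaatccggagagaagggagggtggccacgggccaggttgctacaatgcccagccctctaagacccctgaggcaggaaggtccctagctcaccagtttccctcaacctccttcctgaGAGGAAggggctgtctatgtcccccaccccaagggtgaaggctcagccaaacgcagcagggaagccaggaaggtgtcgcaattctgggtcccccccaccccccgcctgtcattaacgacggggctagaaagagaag
Ngp (chr9:110419558-110419857, plus strand): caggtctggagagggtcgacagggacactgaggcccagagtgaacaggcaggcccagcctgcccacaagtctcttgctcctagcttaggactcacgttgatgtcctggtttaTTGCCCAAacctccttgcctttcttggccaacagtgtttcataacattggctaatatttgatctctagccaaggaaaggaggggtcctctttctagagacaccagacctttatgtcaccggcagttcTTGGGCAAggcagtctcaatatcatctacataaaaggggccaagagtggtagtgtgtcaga

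The S100a8 window held 2 PU.1 matches and the Csf3r window 1, and neither held a C/EBP match. The S100a9 window held 1 C/EBP match and the Ngp window 2, and neither held a PU.1 match. The other immature genes differed from Ngp, as the Ltf window held 1 match of each kind and the Camp window 0. Over the 10 listed genes, 4 windows held the C/EBP letters, against 10.8% of 32851 promoters, and 6 held the PU.1 letters, against 28.3%. No match overlapped another, and a match is a run of letters, not a bound site. The Csf3r window lies inside the annotated span of the gene, around a start downstream of its first base.

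The values below are log2 values relative to a baseline that the authors set for each probe. They hold no absolute signal, so levels of different genes cannot be ranked, and whether a probe stood above the array's background cannot be told. The AOM/DSS and water arrays are not on the same baseline, so genotypes were compared within each array set and AOM/DSS was not compared with water. In bulk tissue RNA, fewer cells of a type and less RNA per cell cannot be told apart.

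Across the 12 arrays, the spread of all probes (SD) was 0.751 in TSP-1-/- AOM/DSS replicate 3 and 0.293 to 0.453 in the others. This array carried pancreatic enzyme transcripts, with a median of 6.36 over 7 pancreas genes, and lymphocyte transcripts, with a median of 3.93 over 5 genes. Lymphocyte transcripts were also high in TSP-1-/- AOM/DSS replicate 1, at a median of 2.14, against 0.34 or less in TSP-1-/- AOM/DSS replicate 2 and the WT AOM/DSS arrays. TSP-1-/- water replicate 1 also carried pancreatic transcripts, with 4.40 for Cpb1 and 3.75 for Ctrb1. WT AOM/DSS replicate 1 correlated over all probes with the TSP-1-/- AOM/DSS arrays (mean r = 0.366) more than with its own group (mean r = 0.053). The median of 7 colon epithelial markers was -0.50 in TSP-1-/- AOM/DSS replicate 3 and -0.002 to 0.189 in the other AOM/DSS arrays. Results are given below with and without these arrays where that matters, and their part in the genotype differences was not tested otherwise.

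After AOM/DSS, the mature neutrophil genes were higher in TSP-1-/- than in WT colons on every array, and by the largest amounts for the calgranulins and Csf3r, while the 3 immature granule genes had differences of 0.37 to 0.68 on the log2 scale. Csf3r was the 1 member of 8 called higher, which required 2-fold or more and a limma p below 0.05 once adjusted over all probes, where 1.74% of all 28815 probes were called higher. No member was called lower (1.05% of probes, and 2.78% either way). In 6 of the 8 members every TSP-1-/- AOM/DSS array was above every WT AOM/DSS array, as for 20.2% of all probes, and 5 of 8 had an unadjusted p under 0.05, as for 32.3%. The median difference over the members was 1.23 on the log2 scale, beside 0.13 over all probes.

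**Figure D1:**
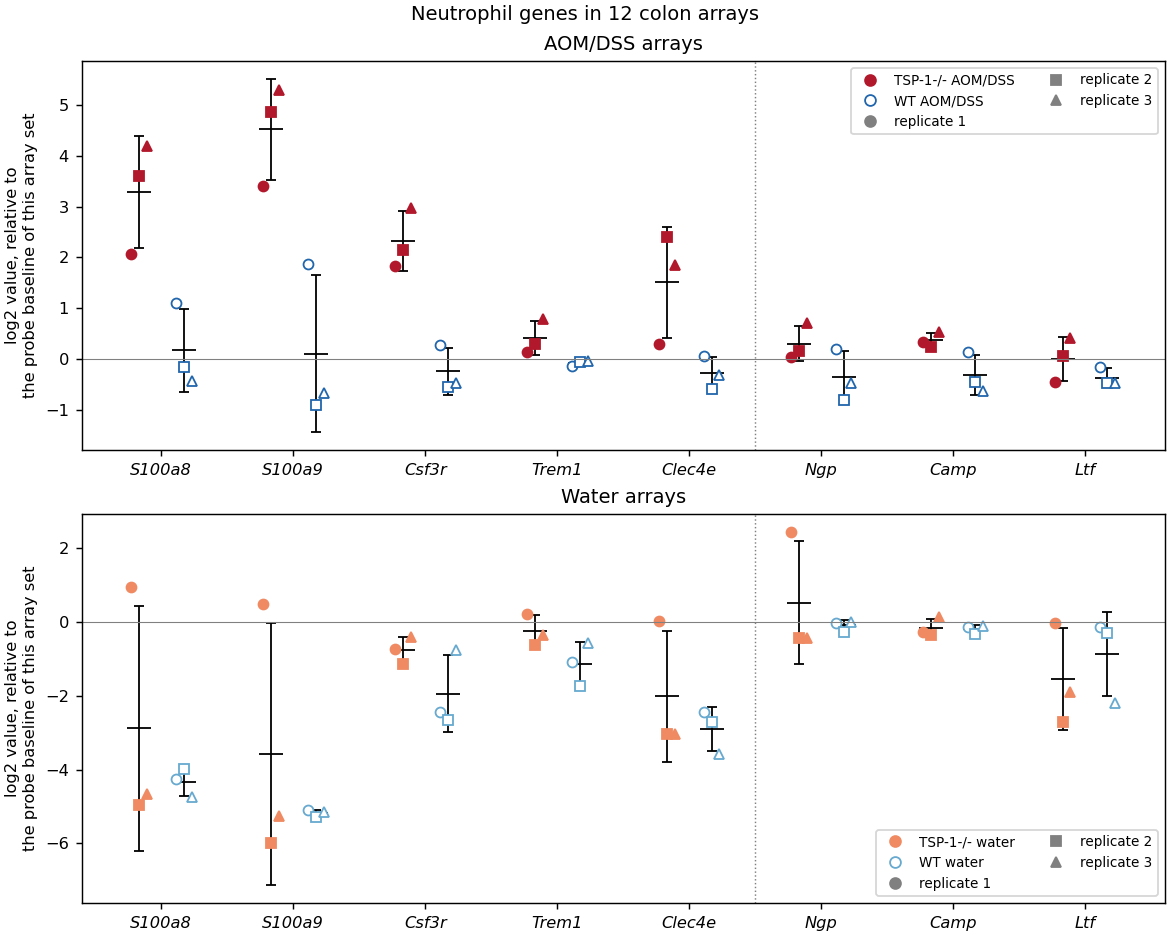
Log2 values, relative to the probe baseline of each array set, of the 8 neutrophil genes on the 6 AOM/DSS arrays (upper panel) and the 6 water arrays (lower panel); each point is 1 mouse, and bars give the mean and SD (n = 3). S100a9 lies between 3.40 and 5.29 in TSP-1-/- AOM/DSS colons and between -0.89 and 1.88 in WT AOM/DSS colons, and 1 TSP-1-/- water array lies far above the other water arrays for S100a8, S100a9, Clec4e and Ngp.

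S100a8 had log2 values of 2.07, 3.61 and 4.20 in TSP-1-/- AOM/DSS colons, against 1.11, -0.15 and -0.44 in WT AOM/DSS colons. All TSP-1-/- values were above all WT values, and WT replicate 1 was the WT colon nearest to them. The difference of 3.12 (SE 1.22, 95% confidence interval 0.47 to 5.77), an 8.70-fold higher level, had an adjusted p of 0.106 and was not called.

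S100a9, its partner, had log2 values of 3.40, 4.86 and 5.29 in TSP-1-/- AOM/DSS colons, against 1.88, -0.89 and -0.67 in WT AOM/DSS colons. The order of the 3 TSP-1-/- colons was that of S100a8, and WT replicate 1 again stood above the other 2 WT colons. The difference was the widest of any member, 4.41 (SE 1.34, 95% confidence interval 1.49 to 7.34) or 21.3-fold, with an adjusted p of 0.0583. The spread behind these tests was pooled over all 4 groups, water included. Without TSP-1-/- water replicate 1 the same differences were called, at adjusted p values of 0.0189 for S100a8 and 0.0158 for S100a9. Without WT AOM/DSS replicate 1 the difference of S100a9 was 5.30 and was called at 0.0408, while S100a8 was not called (adjusted p = 0.105). When only the AOM/DSS arrays entered the limma fit, neither was called, at adjusted p values of 0.111 for S100a8 and 0.108 for S100a9. Over all fits with 1 array left out, the adjusted p reached 0.277 for S100a8 and 0.183 for S100a9.

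Csf3r rose in TSP-1-/- colons. Its log2 values were 1.83, 2.15 and 2.98 in TSP-1-/- AOM/DSS colons, against 0.29, -0.55 and -0.46 in WT AOM/DSS colons, a gap wider than the range of either group. The difference of 2.56 (SE 0.46, 95% confidence interval 1.57 to 3.56), or 5.91-fold, had an adjusted p of 0.0169. The call was lost when TSP-1-/- AOM/DSS replicate 3 was left out (difference 2.24, adjusted p = 0.0535) or WT AOM/DSS replicate 3 was (2.45, adjusted p = 0.0700), and also when only the AOM/DSS arrays entered the fit (adjusted p = 0.0756).

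Clec4e had log2 values of 0.29, 2.39 and 1.85 in TSP-1-/- AOM/DSS colons, against 0.07, -0.58 and -0.31 in WT AOM/DSS colons. TSP-1-/- replicate 1 was close to the WT colons, and the groups did not overlap. The difference was 1.79 (SE 0.74), or 3.45-fold, with an adjusted p of 0.122.

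Trem1 had log2 values of 0.15, 0.29 and 0.79 in TSP-1-/- AOM/DSS colons, against -0.13, -0.06 and -0.03 in WT AOM/DSS colons. The values separated by genotype but lay close together, and the difference of 0.48 (SE 0.29) was the smallest among the mature genes, with an adjusted p of 0.260.

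Among the immature granule genes, Camp had log2 values of 0.33, 0.24 and 0.54 in TSP-1-/- AOM/DSS colons, against 0.14, -0.46 and -0.62 in WT AOM/DSS colons. The groups did not overlap. The difference of 0.68 (SE 0.20, 95% confidence interval 0.25 to 1.11), or 1.60-fold, had an adjusted p of 0.0536.

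Ngp had log2 values of 0.05, 0.17 and 0.70 in TSP-1-/- AOM/DSS colons, against 0.20, -0.81 and -0.46 in WT AOM/DSS colons. WT replicate 1 was above 2 of the TSP-1-/- colons, and the difference was 0.66 (SE 0.61, adjusted p = 0.457).

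Ltf had log2 values of -0.45, 0.05 and 0.41 in TSP-1-/- AOM/DSS colons, against -0.15, -0.47 and -0.46 in WT AOM/DSS colons. The groups overlapped, and the difference of 0.37 (SE 0.63) had an adjusted p of 0.707. The 95% confidence intervals of Ngp (-0.66 to 1.98) and Ltf (-1.01 to 1.74) still hold differences of over 2-fold.

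Within each AOM/DSS group, the same array was the highest for most members. TSP-1-/- AOM/DSS replicate 3 was the highest of its group for 7 of the 8 genes, Clec4e being the exception. WT AOM/DSS replicate 1 was the highest of its group for 7 of the 8, all but Trem1. How often these arrays were the highest over all probes is not given here, so the 2 counts have no background. On water, TSP-1-/- replicate 1 was the highest of its group for 6 members. The WT water colons were split, with replicates 1, 2 and 3 the highest for 3, 1 and 4 members. Without TSP-1-/- AOM/DSS replicate 3, 0 members were called, and the limma adjusted p was 0.268 for S100a8 and 0.159 for S100a9. Both calgranulins were called without TSP-1-/- water replicate 1 alone. With both arrays that carried pancreatic transcripts left out, an alternative chosen after seeing the data, S100a8 (2.67, adjusted p = 0.0471) and S100a9 (4.02, adjusted p = 0.0398) were called and Csf3r was not (2.24, adjusted p = 0.0719).

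**Figure D2:**
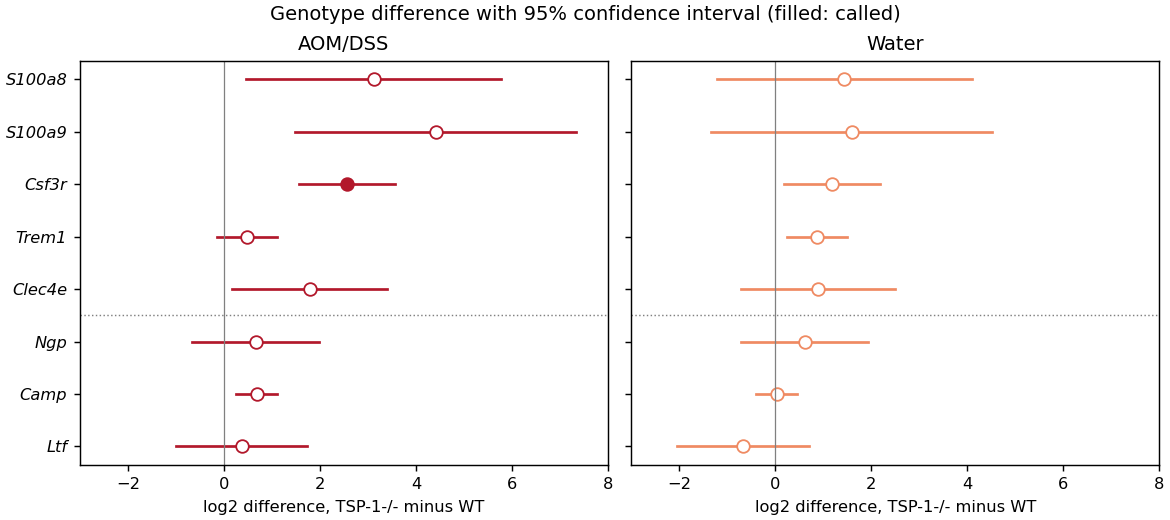
Genotype difference of each member on the log2 scale (TSP-1-/- minus WT) with its 95% confidence interval, for the AOM/DSS arrays (left) and the water arrays (right); filled points were called, and the dotted line separates mature from immature genes. Csf3r after AOM/DSS (2.56) is the filled point, and on water the intervals of Csf3r and Trem1 lie above 0 without a call.

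On the water arrays no member was called, as for 0 of 28815 probes (0%), and every member's groups overlapped, where 2.29% of all probes were higher in TSP-1-/- without overlap. At an unadjusted p under 0.05, 2 of the 8 members passed, Csf3r and Trem1, as did 0.999% of all probes. The member median was 0.88, beside -0.00 over all probes.

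Csf3r had log2 values of -0.72, -1.15 and -0.41 in TSP-1-/- water colons, against -2.42, -2.65 and -0.75 in WT water colons. WT replicate 3 lay among the TSP-1-/- colons and the other 2 WT colons lay below. The difference was 1.18 (SE 0.46, 95% confidence interval 0.18 to 2.18), with an adjusted p of 1 and an unadjusted p of 0.0241 in limma's test.

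Trem1 had log2 values of 0.22, -0.63 and -0.34 in TSP-1-/- water colons, against -1.07, -1.74 and -0.56 in WT water colons. WT replicate 3 was again the WT colon within the TSP-1-/- range. The difference was 0.88 (SE 0.29, 95% confidence interval 0.25 to 1.50), with an adjusted p of 1 and an unadjusted p of 0.0102 in limma's test.

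The calgranulins were high in a single water colon. S100a8 had log2 values of 0.96, -4.96 and -4.65 in TSP-1-/- water colons, against -4.25, -3.98 and -4.75 in WT water colons. S100a9 had log2 values of 0.49, -5.99 and -5.26 in TSP-1-/- water colons, against -5.09, -5.28 and -5.16 in WT water colons. TSP-1-/- replicate 1 stood above all 5 other water arrays, by 4.93 for S100a8 and 5.58 for S100a9, while the other 2 TSP-1-/- colons were within or below the WT range. The differences of 1.44 (SE 1.22) and 1.59 (SE 1.34), both with an adjusted p of 1, became -0.48 and -0.45 without that array.

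Clec4e followed the same pattern, with log2 values of 0.03, -3.04 and -3.02 in TSP-1-/- water colons, against -2.45, -2.69 and -3.58 in WT water colons. Ngp had log2 values of 2.45, -0.44 and -0.44 in TSP-1-/- water colons, against -0.01, -0.26 and 0.02 in WT water colons. TSP-1-/- replicate 1 was above the highest other water array by 2.47 for Clec4e and 2.43 for Ngp, and the Ngp gap was wider than the range of Ngp over the 6 AOM/DSS arrays. The differences were 0.89 for Clec4e and 0.61 for Ngp, and -0.13 and -0.35 without that array.

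Camp had log2 values of -0.28, -0.35 and 0.14 in TSP-1-/- water colons, against -0.14, -0.32 and -0.11 in WT water colons. The groups overlapped closely, at a difference of 0.03 (95% confidence interval -0.41 to 0.46). Ltf had log2 values of -0.02, -2.72 and -1.90 in TSP-1-/- water colons, against -0.14, -0.28 and -2.18 in WT water colons. Both genotypes held low and high colons, and the difference was -0.68 (SE 0.63, adjusted p = 1), with -1.44 when TSP-1-/- replicate 1 was left out and -0.09 when TSP-1-/- replicate 2 was.

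TSP-1-/- water replicate 1 was above all 5 other water arrays for 6 of the 8 members, as for 15.8% of all probes, and by more than 1 on the log2 scale for 4 of the 8, as for 0.368% of all probes. Csf3r and Camp were the exceptions to the first count. Of 14 further genes of the later granules, 11 were above all other water arrays on this colon and 5 by more than 1. Among these were Chil3, a chitinase-like protein, at 2.01 and a gap of 4.49, Mmp8, the neutrophil collagenase, at 1.84 and a gap of 3.77, and Lcn2, which binds bacterial siderophores, at 1.50 and a gap of 3.52. The genes of the primary granules showed no such gap, with Mpo at -0.16 and Elane at -0.05, each within the range of the other water arrays. Gaps of other neutrophil surface genes on this colon ran from -0.44 to 3.32. Ly6g, a surface marker of mouse neutrophils, was at -0.17, within the range of the other water arrays (gap -0.33). This colon was also 1 of the 2 with pancreatic transcripts, whose part in these values was not tested.

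Whether the genotype difference was itself different between AOM/DSS and water was tested for each member. None of the 8 passed (1 of 8, Camp, had an unadjusted p under 0.05 in limma's test, as did 15.4% of all probes), and 0.00694% of all probes (2 of 28815) did. The difference of differences was 2.82 for S100a9 (adjusted p = 0.457), 1.68 for S100a8 (adjusted p = 0.623), 1.38 for Csf3r (95% confidence interval -0.03 to 2.79, adjusted p = 0.330) and 0.65 for Camp (adjusted p = 0.306). An effect seen after AOM/DSS and not on water was therefore not shown to differ between the treatments for any member.

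The immature granule genes were set against the mature genes by the median difference of each set, as a description with no test. After AOM/DSS the median genotype difference was 0.66 over the 3 immature genes (0.37 to 0.68) and 2.56 over the 5 mature genes (0.48 to 4.41), so that the immature median was lower by 1.90 on the log2 scale (immature minus mature -1.90). On each array, the immature minus the mature median was -1.79, -2.23 and -2.44 in TSP-1-/- AOM/DSS colons, against -0.14, 0.08 and -0.03 in WT AOM/DSS colons. The groups did not overlap, and leaving out any 1 array gave -2.11 to -1.77. Trem1 overlapped the immature genes in size, and without the calgranulins the value was -1.12. The contrast covers only the 3 chosen immature genes. The 14 further genes of the later granules, placed in neither set, had differences of -0.06 to 3.25, with a median of 0.94.

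On water the median genotype difference was 0.03 over the immature genes and 1.18 over the mature genes, an immature minus mature value of -1.15. Per array this was -0.24, 2.61 and 2.59 in TSP-1-/- water colons, against 2.31, 2.42 and 3.47 in WT water colons. TSP-1-/- replicate 1 lay far below the other 5 water arrays, and without it the value was -0.23.

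**Figure D3:**
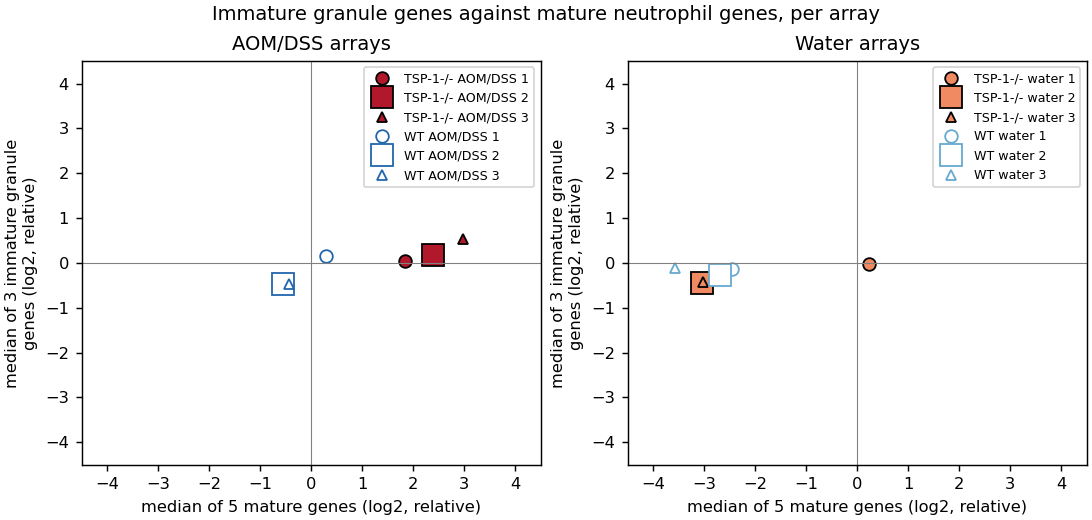
Median log2 value, relative to the probe baseline of each array set, of the 3 immature granule genes (vertical) against the median of the 5 mature neutrophil genes (horizontal) on each AOM/DSS array (left) and each water array (right); each point is 1 mouse and symbol size has no meaning. The TSP-1-/- AOM/DSS colons lie to the right of the WT AOM/DSS colons with little difference in height, and TSP-1-/- water replicate 1 lies apart from the other 5 water colons.

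Other genes of the neutrophil granules were read from lists. Among 5 genes of the primary granules, which are filled first, 0 were called after AOM/DSS, with a median difference of 0.25. Of these genes, 1 had an unadjusted p under 0.05, beside 32.3% of all probes. Mpo, the myeloperoxidase, had log2 values of -0.38, -0.68 and 0.74 in TSP-1-/- AOM/DSS colons, against 0.11, -0.18 and -0.20 in WT AOM/DSS colons. Of 7 listed stefins of neutrophils 2 were measured, and 0 were called (0 at an unadjusted p under 0.05). Among 14 genes of the later granules and their membranes, 4 rose in TSP-1-/-, beside 1.74% of all probes, and 0 fell, with a median of 0.94. These were Lcn2 (3.25, adjusted p = 0.0462), Mmp9, a gelatinase (1.90, adjusted p = 0.0235), Lyz2, lysozyme (1.78, adjusted p = 0.0234), and Cybb, the catalytic subunit of the NADPH oxidase (1.66, adjusted p = 0.0309). Lcn2, Lyz2 and Cybb are also made by macrophages or epithelium, and which cells carried the transcripts of the 4 genes, Mmp9 included, was not measured. With both arrays that carried pancreatic transcripts left out, 1 of the 14 was called, Cybb, at 1.13 (adjusted p = 0.0174). The differences of the other 3 were then 3.18 for Lcn2 (adjusted p = 0.0659), 1.72 for Mmp9 (adjusted p = 0.0886) and 1.39 for Lyz2 (adjusted p = 0.0631).

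Of 13 other neutrophil surface genes measured, 3 rose, beside 1.74% of all probes, and 0 fell, with a median of 1.01. Cxcr2, the receptor for the chemokines that recruit neutrophils, had log2 values of 3.66, 4.25 and 4.96 in TSP-1-/- AOM/DSS colons, against -0.03, -0.98 and 0.15 in WT AOM/DSS colons. Its difference of 4.58 (SE 0.84, adjusted p = 0.0183) was of the size of that of S100a9, with a narrower spread. Itgb2, the integrin beta chain of leukocytes, rose by 1.75 (adjusted p = 0.0273) and C5ar1, the receptor for complement C5a, by 1.30 (adjusted p = 0.0278). With both arrays that carried pancreatic transcripts left out, Cxcr2 (4.24) and Itgb2 (1.27) were also called, and C5ar1 was not, at a difference of 1.21 (adjusted p = 0.0819). Ly6g, whose product is the surface marker most used for mouse neutrophils, had log2 values of 0.68, 0.17 and -0.17 in TSP-1-/- AOM/DSS colons, against 0.41, -4.86 and -3.52 in WT AOM/DSS colons. WT replicate 1 lay within the TSP-1-/- range, and the difference of 2.88 (SE 1.79) had an adjusted p of 0.275. On water Ly6g also varied widely within each genotype, from -6.02 to 0.17 in TSP-1-/- colons and from -5.85 to -0.02 in WT colons.

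Ligands and signalling partners of the members were mostly not called, 1 of 12 rising, beside 1.74% of all probes, with a median of 0.66. Tyrobp, the adaptor through which Trem1 signals, rose by 1.19 (adjusted p = 0.0347), a call lost with both arrays that carried pancreatic transcripts left out (0.90, adjusted p = 0.0910). Csf3, the ligand of Csf3r, had log2 values of -0.58, -0.77 and -0.72 in TSP-1-/- AOM/DSS colons, against -0.95, 0.02 and -0.89 in WT AOM/DSS colons. The Csf3 groups overlapped (difference -0.08, adjusted p = 0.812), unlike those of its receptor. Clec4d, the lectin encoded beside Clec4e, differed by 1.93 (adjusted p = 0.0564), and it was called at 1.72 (adjusted p = 0.0259) without the 2 arrays that carried pancreatic transcripts. Of 4 relatives of the formyl peptide receptors and 6 granulocyte transcription factors, 0 were called, with medians of 0.57 and 0.14. At an unadjusted p under 0.05, 3 of each passed, beside 32.3% of all probes. Among the factors, Spi1, which encodes PU.1, differed by 1.14 (adjusted p = 0.0545), and Cebpe, the C/EBP factor needed for the later granules, by 0.23 (adjusted p = 0.423).

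Markers of other cells were read beside the neutrophil genes, and their part in the differences was not tested. Of 7 monocyte or macrophage markers, 2 were called higher in TSP-1-/- AOM/DSS colons, beside 1.74% of all probes. These were Ccr2 (1.52, adjusted p = 0.0461) and Csf1r (1.03, adjusted p = 0.0491). Neither was called with both arrays that carried pancreatic transcripts left out. All 7 had an unadjusted p under 0.05, as for 32.3% of all probes. For 6 of the 7 every TSP-1-/- AOM/DSS array was above every WT AOM/DSS array, as for 20.2% of all probes. The median of these markers per array was 0.40 to 1.16 in TSP-1-/- AOM/DSS colons, against -0.41 to -0.08 in WT AOM/DSS colons, so they separated by genotype as the mature neutrophil genes did. Of 4 eosinophil, 2 erythroid and 7 colon epithelial markers, 0 were called (0, 0 and 3 at an unadjusted p under 0.05), with median differences of 0.20, 0.33 and -0.30. Every epithelial difference was below 0, and for Epcam (-0.40), Krt20 (-0.59) and Vil1 (-0.53) the TSP-1-/- AOM/DSS colons were below the WT AOM/DSS colons without overlap. The median epithelial difference was -0.096 without the 2 arrays that carried pancreatic transcripts. Of 8 squamous epithelial markers, 1 was called higher, Krt14 (1.71, adjusted p = 0.00983), and 0 were called lower. Their differences ran from -1.40 to 1.71, with a median of 0.245, and 5 had an unadjusted p under 0.05. Of 5 lymphocyte markers, 1 rose, the B cell gene Cd79a (2.69, adjusted p = 0.0449), whose groups overlapped. It was not called with both arrays that carried pancreatic transcripts left out (1.91, adjusted p = 0.159). The 5 lymphocyte differences ran from 0.618 to 2.688, with a median of 2.065, and 3 had an unadjusted p under 0.05. The genotype groups overlapped for every lymphocyte marker. The lymphocyte median was 1.15 without the 2 arrays that carried pancreatic transcripts. Of 7 pancreas genes 0 were called (0 at an unadjusted p under 0.05), with a median of 2.44 that became 0.16 without the 2 arrays that carried them. On water, 0 genes of any of these lists were called. At an unadjusted p under 0.05 no list had more than 2, beside 0.999% of all probes.

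**Figure D4:**
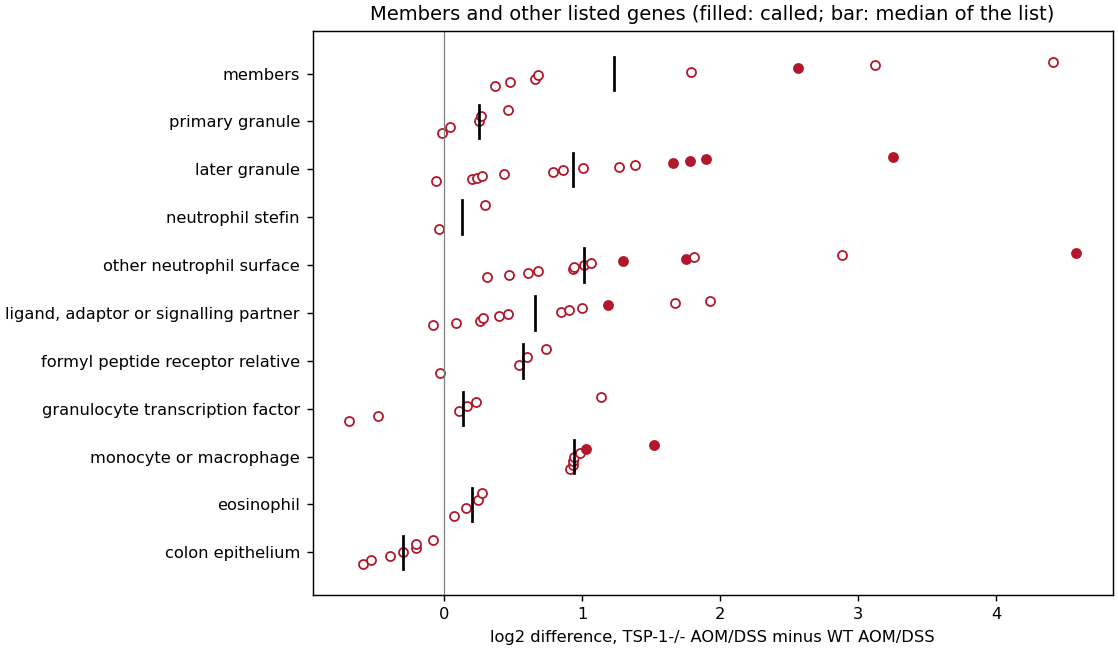
Genotype difference after AOM/DSS (log2, TSP-1-/- AOM/DSS minus WT AOM/DSS) of each measured gene in the 8 members and in 10 of the other lists; each point is 1 gene, filled where called, and black bars are list medians. The members and the later granule, surface and monocyte lists have medians of 0.94 to 1.23, and the primary granule, transcription factor, eosinophil and epithelial lists have medians of -0.30 to 0.25. The erythroid, squamous, pancreas and lymphocyte lists are not drawn. Of these, the pancreas (2.44) and lymphocyte (2.065) lists have medians above those of all drawn lists.

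Over the 6 AOM/DSS arrays the members' values correlated with each other at Pearson's r of 0.68 to 0.98, and S100a8 with S100a9 at 0.98. These 6 arrays are 3 of each genotype, so the genotype difference is part of every such value, and 205 probes (0.711%) had r above 0.95 with the median of the members. The 5 genes with 1 symbol whose pattern was most like that median were Tsn, Cd47, Nlrc5, Gm10706 and C130050O18Rik, with r of 0.991 to 0.997 over 6 arrays. None of the 5 was called, and their differences ran from 0.31 to 0.56. Cd47, a cell surface receptor that binds thrombospondin 1, had log2 values of 0.20, 0.65 and 0.77 in TSP-1-/- AOM/DSS colons, against 0.17, -0.09 and -0.10 in WT AOM/DSS colons, a difference of 0.55 (adjusted p = 0.0680).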

How the data were processed

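Total colon RNA of 12 mice was measured on Affymetrix arrays. The authors deposited log2 values made with the PLIER16 algorithm and quantile normalization, and their methods give the baseline as the median of all 12 samples. Group means of the AOM/DSS arrays matched the study's own table for 376 of 377 genes read (tolerance 1e-04) and those of the water arrays for 0, and the 12-array median was 0 for 964 of 28815 probes, so the 2 array sets were treated as having separate baselines. The table was used for nothing else.

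Of 28853 probes, 21789 had 1 gene symbol, 1621 several and 5443 none, and 28815 had values on all 12 arrays and were tested. Probes were named through the platform annotation. Groups were fitted as 4 means with limma 3.58.1 (R 4.3.3) over the 12 arrays, variances were moderated, and p-values were adjusted by Benjamini-Hochberg over all probes tested. Calls required 2-fold or more and an adjusted p below 0.05. Replicates of the AOM/DSS groups varied more (median SD 0.241) than those of the water groups (0.169). The fit was tested on simulated data. Precision is limited by the 3 arrays per group. The study's filter on low signals could not be applied to relative values.

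All members are named, with at most 4 called genes of each other list by size of difference, the 5 genes most like the members' median, Cxcr2 and Thbs1. Cpb1, Ctrb1, Chil3, Mmp8, Lcn2 on water, Mpo, Elane, Ly6g, Csf3, Clec4d, Spi1, Cebpe, Epcam, Krt20 and Vil1 were chosen after their values were seen. The members and lists were chosen with earlier results of these data known. Alternatives were other array scalings, array weights, no variance moderation, a filter on variable probes, 2 groups only, a replicate block and leaving out arrays. Positions and promoters are from RefSeq on GRCm38.p6.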

Additional observations from a re-analysis of the deposited data

How the results depend on the processing

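After AOM/DSS, no member's difference changed sign under any alternative. The count of called members, 1, was also 1 with the replicate block (804 probes called, against 802 without it), with each array centred, with quantile normalization within each array set, with array weights and with the filter on variable probes, which removed S100a8. It was 0 with only the AOM/DSS groups, with quantile normalization again (Csf3r 1.51, adjusted p = 0.0541) and with no variance moderation (Csf3r adjusted p = 0.0594). It ranged from 0 to 3 when 1 array was left out, with 3 called without TSP-1-/- water replicate 1, and was 2 with both arrays that carried pancreatic transcripts left out. The cause was not tested.

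Over all probes the 802 calls (500 higher) became 6 (5 higher) with 2 groups only, 183 (78 higher) with quantile normalization again, 47 (43 higher) with no variance moderation, 143 (128 higher) with both arrays that carried pancreatic transcripts left out, 381 with array weights and 104 to 1403 when 1 array was left out. Under the other scalings, 396 of 810 were higher with each array centred and 259 of 650 with quantile normalization within each set. The median difference of all probes was 0.02 with quantile normalization again, against 0.13 as deposited, and the members' directions were the same under both, but their sizes were not. S100a9 was 2.20 with quantile normalization again and 2.70 within each set, against 4.41 as deposited, S100a8 was 1.48 and 1.93, against 3.12, and Clec4e was 1.09 and 1.37, against 1.79.

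The immature minus mature value after AOM/DSS, -1.90, was -0.99 with quantile normalization again, -1.37 with quantile normalization within each set and -1.12 without the calgranulins. On water, where 0 members were called under every alternative, the differences ranged from -0.48 to 2.48 for S100a8, -0.45 to 2.80 for S100a9, -0.13 to 1.41 for Clec4e, -0.35 to 1.09 for Ngp, -0.13 to 0.12 for Camp and -1.44 to -0.09 for Ltf when 1 array was left out. With array weights that of Camp was -0.076, and with both arrays that carried pancreatic transcripts left out those of S100a8, S100a9, Clec4e and Ngp were -0.48, -0.45, -0.13 and -0.35. The difference of differences called 0 members under every alternative.

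Same-numbered AOM/DSS arrays correlated at 0.026, -0.043 and -0.025 in their deviations from the group means, and different-numbered ones at -0.022 to 0.052. Same-numbered water arrays correlated at 0.093, 0.281 and 0.402, and different-numbered ones at -0.377 to 0.183. What same-numbered water arrays may share was not tested. The replicate block changed no call of a member.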
